A study of Mus musculus with 12 samples.

Results

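The 9 genes described here make, carry or take up retinoids: the retinol dehydrogenases Rdh5, Rdh10 and Rdh11, the retinaldehyde dehydrogenases Aldh1a1 and Aldh1a2, the retinol carrier Rbp4, its membrane receptor Stra6, and the cellular retinoic acid binding proteins Crabp1 and Crabp2. They were taken by name from the 17973 genes in the RNA-seq tables of mouse brain, and all 9 were found in both tissues. The set was chosen by earlier results of these data, in which the FPKM of Rdh5 was higher in KO libraries of both tissues, so every KO against control value of these genes is a description and carries no test. The libraries came from neural stem and progenitor cells, with the cells around them, of the dentate gyrus (DG) of the hippocampus and of the subventricular zone (SVZ) along the lateral ventricles. KO mice were hGFAP/+;Dpy30F/- and control mice hGFAP/+;Dpy30F/+, with 3 libraries in each of the 4 groups. Both genotypes carry hGFAP/+ and the Dpy30F allele, and the second Dpy30 allele is the minus allele in KO mice and the plus allele in controls. The labels used here do not give ages or spell out what the hGFAP allele carries. They also do not say whether libraries came from separate animals, so the error behind a p-value is that between libraries and could be technical.

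Cells take up retinol from its carrier RBP4 through STRA6. Retinol dehydrogenases interconvert retinol and retinaldehyde, and ALDH1A enzymes oxidise retinaldehyde to retinoic acid, which binds RAR and RXR receptors on DNA. CRABP proteins hold retinoic acid in the cytosol, and CYP26 enzymes break it down. In the adult brain the meninges are a known source of retinoic acid, and the pathway is studied in neural progenitors for its part in neuronal differentiation. DPY30 is a core subunit of the SET1/MLL complexes that methylate lysine 4 of histone H3.

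Levels are FPKM, fragments scaled by transcript length and library size, summed over the transcripts of a gene. Fold changes are ratios of mean FPKM, and log2 fold changes are differences of log2(FPKM + 1), KO minus control, which understate changes of low genes. Table columns carry a group name without a replicate number. The letters a, b and c given to libraries here follow column order and pair nothing. Dpy30 stood at 6.22, 6.89 and 5.68 FPKM in DG KO libraries, against 8.43, 8.38 and 10.1 FPKM in DG controls (exact permutation test, two-sided p = 0.1, the smallest that 3 against 3 allows). In the SVZ it stood at 8.83, 5.04 and 4.87 FPKM in KO libraries a, b and c, against 7.73, 8.25 and 9.43 FPKM in controls (exact permutation p = 0.3). The library labelled SVZ KO a therefore lay within the control range of Dpy30, and SVZ values are given with and without it. Whether the summed Dpy30 transcripts contain the deleted part is not known here.

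Tissue markers also set libraries apart. Summed FPKM of 6 striatal neuron markers was 38.7, 278 and 608 in DG KO libraries, against 50.2, 625 and 20.5 in DG controls, so DG KO b, DG KO c and DG control b stood near or above the SVZ range of 327 to 548. Summed FPKM of 7 dentate granule neuron markers was 30.3, 24.7 and 25.1 in DG KO libraries, against 54.9, 31.5 and 58.9 in DG controls. All DG KO sums lay below all DG control sums, and 0 of the 6 markers tested had a positive log2 fold change. The SVZ sums were 31.3 to 40.3, so only DG controls a and c lay above the SVZ range. Prox1, 1 of these markers, was at 1.93, 1.5 and 1.19 FPKM in DG KO libraries, against 2.30, 0.96 and 10.7 FPKM in DG controls. It was at 1.27 to 2.14 FPKM in SVZ libraries, so for Prox1 alone 1 DG library was clearly above the SVZ. Depth, estimated from the steps in low values, was 48.2 to 66.0 reads per FPKM of a 1 kb transcript in DG KO libraries and 26.6 to 41.8 in DG controls. It was 34.1 to 50.0 in SVZ KO libraries and 36.9 to 46.1 in SVZ controls. All 3 DG KO libraries were deeper than all 3 DG controls, and low values of the controls are less precise.

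Rdh5, the retinol dehydrogenase known in the eye for making 11-cis-retinaldehyde, lies on the minus strand at chr10:128913593-128922888 (GRCm38). Its gene span shares 5007 bases with that of Bloc1s1, which begins upstream on the same strand. The tables held 3 Rdh5 transcripts. Rdh5-201 and Rdh5-202 are annotated as coding for protein. Rdh5-207 begins at the same base as Rdh5-201 and keeps an intron, and Rdh5-202 begins 3591 bases upstream, among the exons of Bloc1s1. The sequences where these transcripts part are shown because the KO libraries differed from controls mainly in one of them. Capitals mark the 15 bases of an exon that 2 transcripts share, and lower case the bases that only the named transcript of the pair has there (GENCODE M21 transcripts, 5′ to 3′).
Rdh5-201, exon 1 to exon 2: cagctttccccagagGCTGCCCTCAGCAGG
Rdh5-202, exon 3 to exon 4: acaggagggaaactgGCTGCCCTCAGCAGG
Rdh5-201, exon 3 to exon 4: CTCTGACAGCCTGAGgcgggacatggctcc
Rdh5-207, reading on past exon 3: CTCTGACAGCCTGAGgtgagggtgcacagg

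The first pair shows that Rdh5-201 and Rdh5-202 join different upstream exons to the same Rdh5 exon. The second shows the splice that Rdh5-201 makes and Rdh5-207 does not. The 250 bases before the shared start of Rdh5-201 and Rdh5-207, at chr10:128919298-128919547 on the minus strand (RefSeq, GRCm38.p6), are shown because the transcript that differed most begins at their end.
Rdh5 promoter: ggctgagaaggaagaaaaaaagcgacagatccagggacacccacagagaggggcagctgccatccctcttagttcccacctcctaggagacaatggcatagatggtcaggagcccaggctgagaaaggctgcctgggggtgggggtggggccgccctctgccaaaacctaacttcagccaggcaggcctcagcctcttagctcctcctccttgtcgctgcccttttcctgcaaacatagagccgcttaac

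RefSeq promoters were found for 7 of the 9 genes, 13 in all, since some genes have several starts. The retinoic acid receptor half-site was searched as the exact letters AGGTCA, on both strands in the 250 bases before a start. Variants of these letters were not searched. It was in 1 of these 13, a promoter of Rdh11 in which its first base lay at -147 from the start. It was not in the Rdh5 promoter above. Of all 32851 promoters, 4607 (14%) held it. The direct repeats AGGTCANNAGGTCA and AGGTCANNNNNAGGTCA, which contain the half-site, were in 0 of the 13 and each in 3 of all promoters (0.00913%).

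Rdh5 as a whole stood at 3.62, 4.78 and 4.01 FPKM in DG KO libraries, against 2.07, 1.64 and 2.06 FPKM in DG controls. Every DG KO library lay above every control, at a ratio of means of 2.15 (log2 fold change 0.81 ± 0.12 SE). In the SVZ it stood at 1.52, 3.61 and 3.54 FPKM in KO libraries a, b and c, against 1.44, 1.03 and 2.17 FPKM in controls. SVZ KO b and c lay above every control, while SVZ KO a, the library with control-like Dpy30, lay among them. The ratio of means was 1.87 with all SVZ libraries (log2 fold change 0.58 ± 0.26 SE) and 2.31 without SVZ KO a (0.87 ± 0.19 SE). The KO effect in the SVZ minus that in the DG was -0.23 ± 0.32 (SE, log2 scale), a difference smaller than its error.

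**Figure D1:**
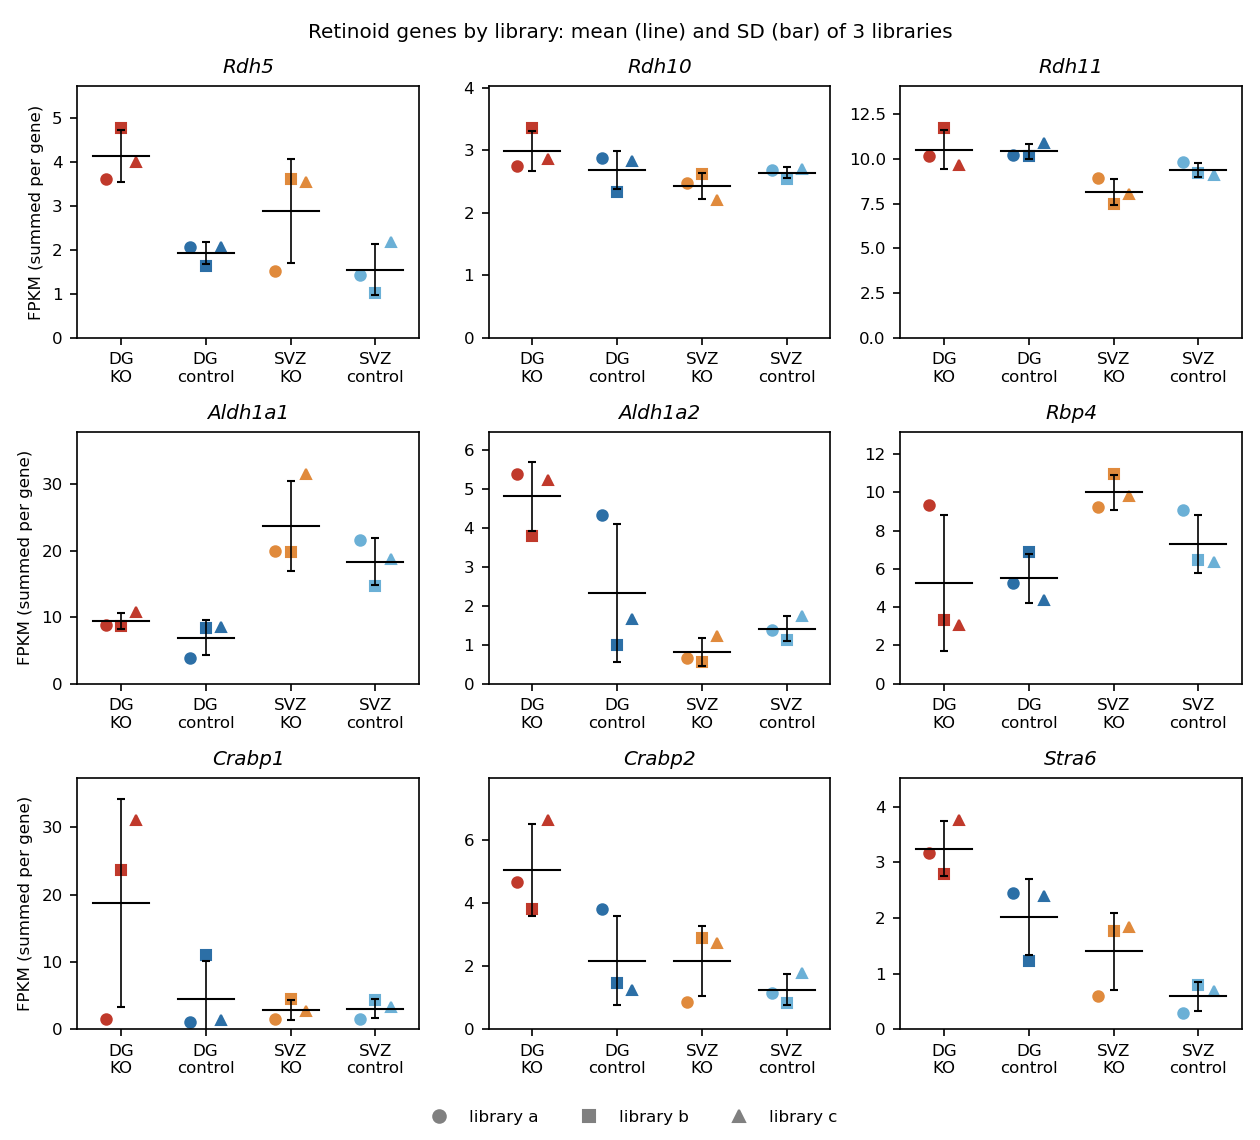
FPKM (vertical axis) of each retinoid gene in the 12 libraries by tissue and genotype, with a line at the mean and a bar for the SD of 3 libraries; marker shapes only name libraries. Rdh5 is between 3.62 and 4.78 FPKM in DG KO libraries and at most 2.07 FPKM in DG controls, and SVZ KO a, at 1.52 FPKM, sits with the SVZ controls.

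The transcripts did not differ alike. Rdh5-201 stood at 2.48, 3.50 and 3.00 FPKM in DG KO libraries, against 1.08, 0.825 and 1.09 FPKM in DG controls, a ratio of means of 2.99. In the SVZ it stood at 1.15, 2.63 and 2.69 FPKM in KO libraries, against 0.927, 0.542 and 1.33 FPKM in controls, a ratio of 2.31. DG KO libraries and SVZ KO b and c were all above their controls, and SVZ KO a was among its controls. By the estimated depth, the Rdh5-201 values in the DG correspond to about 201 to 212 reads in a KO library and 27.7 to 57.1 in a control library. These reads are rough estimates, and they differ by more than the FPKM because the DG KO libraries were deeper. Rdh5-202 averaged 0.554 FPKM in DG KO libraries and 0.494 FPKM in DG controls, with overlapping groups and a ratio of 1.12. In the SVZ it averaged 0.345 FPKM in KO libraries and 0.305 FPKM in controls, a ratio of 1.13. Rdh5-207 averaged 0.589 FPKM in DG KO libraries and 0.433 FPKM in DG controls, a ratio of 1.36 with every KO library above every control. It averaged 0.388 FPKM in SVZ KO libraries and 0.310 FPKM in SVZ controls, a ratio of 1.25 with overlapping groups. How reads of shared exons were divided between these transcripts was not stated, and the smaller transcripts rest on few reads.

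**Figure D2:**
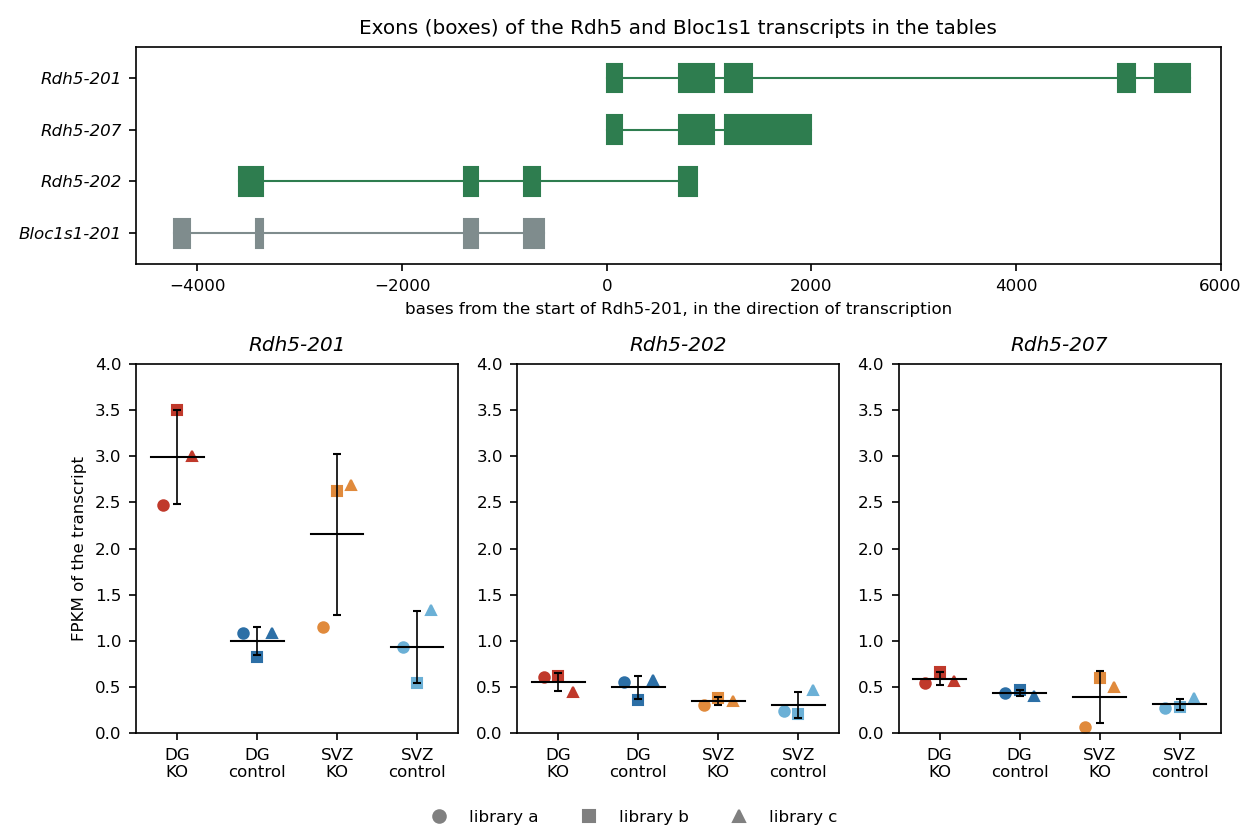
Above, exons (boxes) of the Rdh5 transcripts and of Bloc1s1-201 by distance in bases from the start of Rdh5-201; below, FPKM of each Rdh5 transcript in the 12 libraries with the mean (line) and SD (bar) of 3. Rdh5-201 is at 2.48 FPKM or more in DG KO libraries and at most 1.09 FPKM in DG controls, while the Rdh5-202 groups overlap in both tissues.

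Bloc1s1, which encodes a subunit of the BLOC-1 complex of lysosome-related organelles, has a transcript, Bloc1s1-201, that ends 617 bases before the start of Rdh5-201. The gene stood at 14.5, 17.7 and 16.3 FPKM in DG KO libraries, against 11.5, 11.3 and 13.0 FPKM in DG controls. The groups did not overlap there, at a ratio of 1.36, less than that of Rdh5. SVZ levels of Bloc1s1 stood at 9.74, 10.8 and 13.3 FPKM in KO libraries, against 10.9, 11.5 and 12.3 FPKM in controls, and the groups overlapped at a ratio of 0.976. Cd63, Gdf11 and Itga7, the other genes near Rdh5 that were looked at, had overlapping groups in both tissues, with ratios between 0.907 and 1.38.

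Summed markers of several other cells also differed between the groups, while those of others overlapped. Myelinating oligodendrocyte markers summed to 132, 132 and 136 FPKM in DG KO libraries, against 246, 2422 and 728 FPKM in DG controls. In the SVZ they summed to 3906, 271 and 208 FPKM in KO libraries a, b and c, against 5969, 3002 and 5370 FPKM in controls, so the SVZ library with control-like Rdh5 also had control-like myelin RNA. Astrocyte markers summed to 345 to 386 FPKM in DG KO libraries and 507 to 674 FPKM in DG controls, and to 761, 465 and 500 FPKM in SVZ KO libraries a, b and c, against 829 to 1094 FPKM in SVZ controls. SVZ KO a was thus below every control for astrocyte markers, but nearer to the lowest control than to SVZ KO b and c. Blood markers summed to 1445 to 4124 FPKM in DG KO libraries and 779 to 1217 FPKM in DG controls. In the SVZ they summed to 291 to 632 FPKM in KO libraries and 296 to 714 FPKM in controls. Endothelial and pericyte markers summed to 149 to 178 FPKM in DG KO libraries and 144 to 146 FPKM in DG controls, and the other way round to 71.2 to 87.8 FPKM in SVZ KO libraries and 93.7 to 124 FPKM in SVZ controls, with SVZ KO a at 87.8 FPKM. Microglial markers summed to 139 to 199 FPKM in DG KO libraries and 139 to 191 FPKM in DG controls, and to 139 to 174 FPKM in SVZ KO libraries and 192 to 261 FPKM in SVZ controls. Choroid plexus markers summed to 24.6, 2009 and 13.1 FPKM in DG KO libraries, against 632, 140 and 19.0 FPKM in DG controls. Their SVZ sums were 159, 4.04 and 4.59 FPKM in KO libraries, against 123, 4.68 and 9.84 FPKM in controls. Ependymal markers summed to 13.0 to 45.6 FPKM in DG KO libraries and 9.65 to 21.0 FPKM in DG controls. The part of all these markers in the values of Rdh5 and the other retinoid genes was not tested. In bulk tissue, fewer cells of a type and less RNA per cell cannot be told apart.

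Rdh10, which makes the retinaldehyde used for retinoic acid in embryos, stood at 2.74, 3.36 and 2.86 FPKM in DG KO libraries, against 2.88, 2.33 and 2.83 FPKM in DG controls. SVZ levels of Rdh10 stood at 2.47, 2.62 and 2.21 FPKM in KO libraries, against 2.68, 2.55 and 2.70 FPKM in controls. The groups overlapped in both tissues, with ratios of 1.11 in the DG and 0.921 in the SVZ. Rdh11, a broadly expressed reductase of retinaldehyde, stood at 10.2, 11.7 and 9.66 FPKM in DG KO libraries, against 10.3, 10.1 and 10.9 FPKM in DG controls, a ratio of 1.01. SVZ levels of Rdh11 stood at 8.92, 7.47 and 8.07 FPKM in KO libraries, against 9.81, 9.22 and 9.12 FPKM in controls. All SVZ KO libraries lay below all controls there, at a ratio of 0.869 (log2 fold change -0.18 ± 0.11 SE). The 2 Rdh11 transcripts went opposite ways in the SVZ. Rdh11-203 averaged 4.74 FPKM in KO libraries and 6.42 FPKM in controls (ratio 0.738). Rdh11-201 averaged 3.41 FPKM in KO libraries and 2.96 FPKM in controls (ratio 1.15), with overlapping groups.

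Aldh1a1, a retinaldehyde dehydrogenase known in dopamine neurons and some astrocytes, stood at 8.75, 8.69 and 10.7 FPKM in DG KO libraries, against 3.83, 8.41 and 8.51 FPKM in DG controls. The DG groups came apart by only a small gap, since 2 controls lay just under the lowest KO library. The log2 fold change, 0.45 ± 0.27 SE, rested on DG control a and was 0.13 without it. In the SVZ it was the most abundant of the 9 genes, at 19.9, 19.7 and 31.5 FPKM in KO libraries, against 21.6, 14.7 and 18.7 FPKM in controls, with overlapping groups. Aldh1a2, the main retinaldehyde dehydrogenase of the meninges, stood at 5.39, 3.80 and 5.24 FPKM in DG KO libraries, against 4.33, 0.992 and 1.65 FPKM in DG controls. SVZ levels of Aldh1a2 stood at 0.648, 0.559 and 1.22 FPKM in KO libraries, against 1.37, 1.11 and 1.75 FPKM in controls. The groups overlapped in both tissues. The ratio of means was 2.07 in the DG and 0.573 in the SVZ, and the KO effect in the SVZ minus that in the DG was -1.34 ± 0.42 (SE, log2 scale).

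Rbp4, the plasma retinol carrier, stood at 9.34, 3.35 and 3.04 FPKM in DG KO libraries, against 5.27, 6.87 and 4.36 FPKM in DG controls, with no order between the groups. SVZ levels of Rbp4 stood at 9.21, 11.0 and 9.80 FPKM in KO libraries, against 9.05, 6.48 and 6.37 FPKM in controls, so every KO library lay above every control, SVZ KO a by a small gap. The SVZ ratio was 1.37 (log2 fold change 0.42 ± 0.15 SE). Stra6, the receptor that takes up retinol from RBP4, stood at 3.17, 2.80 and 3.77 FPKM in DG KO libraries, against 2.44, 1.23 and 2.40 FPKM in DG controls. The DG groups did not overlap, at a ratio of 1.60 (log2 fold change 0.51 ± 0.19 SE, and 0.306 without DG control b). This held for the sum only, since the groups of each of its 3 transcripts overlapped in the DG. The most abundant, Stra6-202, was at 1.52 to 2.40 FPKM in DG KO libraries and 0.485 to 1.58 FPKM in DG controls. SVZ levels of Stra6 stood at 0.608, 1.76 and 1.83 FPKM in KO libraries a, b and c, against 0.298, 0.792 and 0.686 FPKM in controls. SVZ KO b and c were again above every control and SVZ KO a among them, and the ratio was 2.36 with SVZ KO a and 3.03 without it.

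Crabp2, which delivers retinoic acid to nuclear receptors, stood at 4.69, 3.83 and 6.66 FPKM in DG KO libraries, against 3.81, 1.49 and 1.25 FPKM in DG controls. The lowest KO library and the highest control nearly touched, and the ratio was 2.32 (log2 fold change 0.99 ± 0.32 SE). SVZ levels of Crabp2 stood at 0.882, 2.89 and 2.74 FPKM in KO libraries a, b and c, against 1.14, 0.841 and 1.8 FPKM in controls, a ratio of 1.72 with SVZ KO a and 2.23 without it. Crabp1, which binds retinoic acid in the cytosol, stood at 1.47, 23.6 and 31.2 FPKM in DG KO libraries, against 1.07, 11.1 and 1.42 FPKM in DG controls. The high DG libraries were KO b, KO c and control b, those with striatal markers, and the groups overlapped. SVZ levels of Crabp1 stood at 1.54, 4.54 and 2.71 FPKM in KO libraries, against 1.52, 4.41 and 3.33 FPKM in controls, with nearly the same range in both groups.

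Of the 9 genes, 8 had a positive log2 fold change in the DG, and 4 (Rdh5, Aldh1a1, Stra6 and Crabp2) had every KO library above every control, as did 25.9% of the 15442 genes tested. None had every DG KO library below every control, as did 7.83% of genes. The median log2 fold change was 0.51 for the 9 genes and 0.09 for all DG genes, 65.3% of which were positive. In the SVZ 5 of the 9 were positive, 1 (Rbp4) had every KO library above the controls, against 7.88% of 15149 genes, and 1 (Rdh11) had every KO library below them, against 7.79%. Without SVZ KO a these became 4 above (Rdh5, Rbp4, Stra6 and Crabp2), against 30.8% of genes, and 1 below (Rdh11), against 19.1%. As the genes were chosen with these contrasts known, nothing is read from these counts.

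By mean level in DG controls the order was Rdh11 at 10.4 FPKM, Aldh1a1 at 6.92, Rbp4 at 5.50, Crabp1 at 4.52, Rdh10 at 2.68, Aldh1a2 at 2.32, Crabp2 at 2.18, Stra6 at 2.02 and Rdh5 at 1.93 FPKM. Rdh11 lay above the range of Aldh1a1, and each gene from Aldh1a1 down overlapped the next in its range over libraries. In SVZ controls the order was Aldh1a1 at 18.3 FPKM, Rdh11 at 9.38, Rbp4 at 7.30, Crabp1 at 3.09, Rdh10 at 2.64, Rdh5 at 1.55, Aldh1a2 at 1.41, Crabp2 at 1.26 and Stra6 at 0.592 FPKM. There the ranges of Crabp1 and Rdh10, of Rdh5 and Aldh1a2, and of Aldh1a2 and Crabp2 overlapped, and those of the other neighbours did not, Rdh11 and Rbp4 by a small gap. Levels are per length and so can be set side by side within a tissue, whereas the tables of the tissues were scaled separately.

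Meningeal and vascular fibroblast markers were high in the DG libraries with high Aldh1a2 and Crabp2. The 15 markers summed to 162, 168 and 171 FPKM in DG KO libraries, against 167, 62.0 and 84.3 FPKM in DG controls and all 15 had positive log2 fold changes. In the SVZ they summed to 38.0, 20.1 and 34.6 FPKM in KO libraries, against 39.2, 54.1 and 56.7 FPKM in controls, and 0 of the 12 tested were positive. None of the 15 was under 0.5 FPKM in every DG library, and 2 were in the SVZ. DG control a, the control with a KO-like fibroblast sum, also had the highest Aldh1a2 and Crabp2 of the DG controls. For Crabp2 the SVZ went the other way: SVZ KO b had the highest Crabp2 of the SVZ libraries, 2.89 FPKM, and the lowest fibroblast sum, 20.1 FPKM. Crabp1 and, among the receptors, Rarb and Rxrg were highest in the DG libraries with high striatal markers. Rarb stood at 1.08, 4.76 and 11.0 FPKM in DG KO libraries, against 1.43, 9.23 and 1.25 FPKM in DG controls. Rxrg stood at 2.20, 5.07 and 28.2 FPKM in DG KO libraries, against 4.0, 19.5 and 1.5 FPKM in DG controls. The high libraries were the same 3 for both receptors and Crabp1, although Rxrg in DG KO b was little above DG control a. Among these 3, Crabp1 did not rank with the striatal sum. DG KO b had 23.6 FPKM of Crabp1 at a striatal sum of 278 FPKM, and DG control b 11.1 FPKM at 625 FPKM. For Crabp1 the SVZ differed too: its libraries had 327 to 548 FPKM of striatal markers and only 1.52 to 4.54 FPKM of Crabp1. The part of fibroblast or striatal RNA in these values was not tested.

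**Figure D3:**
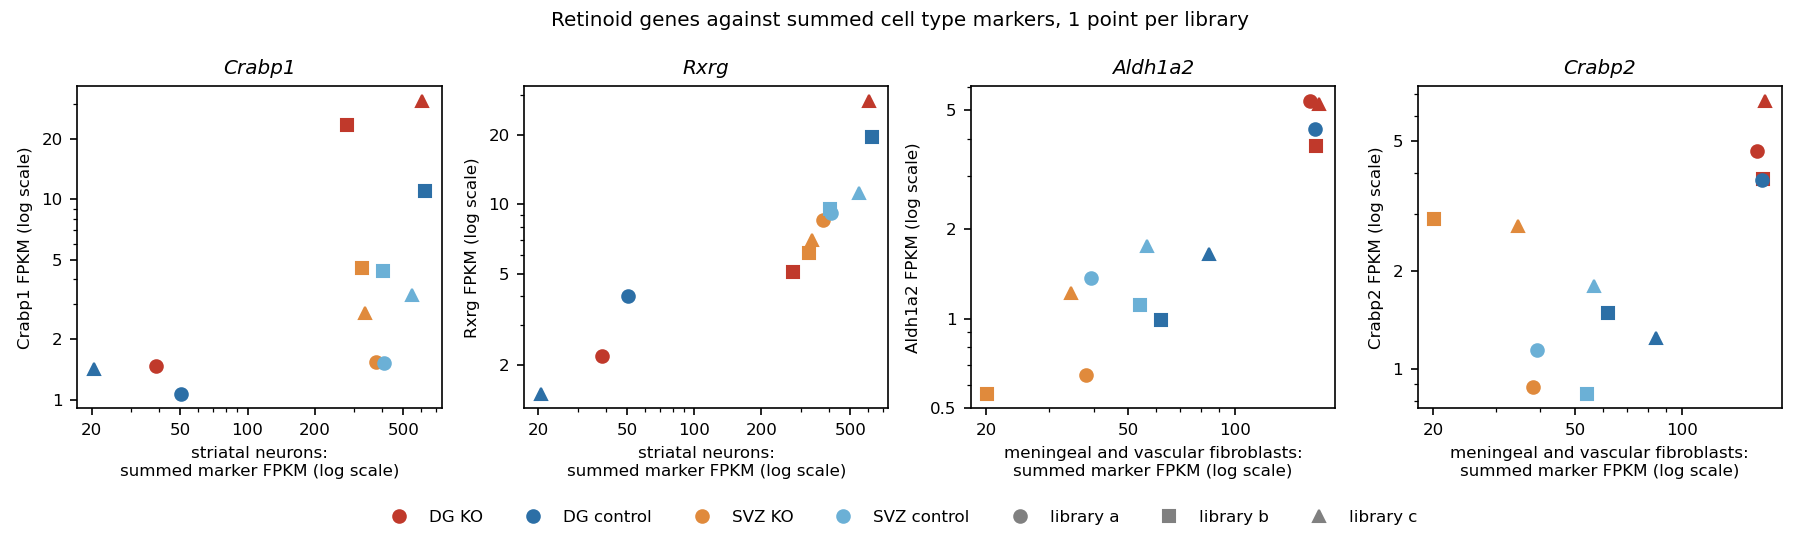
FPKM of 4 retinoid genes (vertical, log scale) against the summed FPKM of striatal neuron or fibroblast markers (horizontal, log scale), 1 point per library, with colours for groups. DG KO b, DG KO c and DG control b have 278 to 625 FPKM of striatal markers and 11.1 to 31.2 FPKM of Crabp1. SVZ libraries have 327 to 548 FPKM of striatal markers and 1.52 to 4.54 FPKM of Crabp1. The 4 DG libraries with 162 FPKM or more of fibroblast markers have 3.80 FPKM or more of Aldh1a2.

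Over the 12 libraries, centred on each tissue mean, the genes with the highest Pearson r to Rdh5 among 14914 were Xrcc5 (0.965), which encodes the Ku80 subunit of DNA end joining, 2900009J06Rik (0.963), Ccdc189 (0.959), Hsd17b10 (0.958), a mitochondrial dehydrogenase, and Zfp786 (0.957). Xrcc5 stood at 4.65, 5.01 and 4.75 FPKM in DG KO libraries, against 3.13, 3.37 and 3.21 FPKM in DG controls. SVZ levels of Xrcc5 stood at 3.76, 5.98 and 5.79 FPKM in KO libraries, against 3.98, 3.82 and 4.64 FPKM in controls. SVZ KO a was near control level, which the choice of genes by likeness to Rdh5 favours. Among the 9 genes, Rdh5 ran closest to Crabp2 (r = 0.831) and Stra6 (0.815), and Crabp2 to Stra6 (0.787), whereas Rdh5 and Rbp4 had an r of -0.015. For the other genes the closest were Ankrd44 to Rdh10 (0.880), Fabp3 to Rdh11 (0.933), Gm13092 to Aldh1a1 (0.904), Slc6a13 to Aldh1a2 (0.952), St3gal5 to Rbp4 (0.932), Gm6104 to Crabp1 (0.953), Wrn to Crabp2 (0.936) and Senp3 to Stra6 (0.965). Slc6a13, a transporter of meningeal fibroblasts, is one of the fibroblast markers above. These are descriptions over 12 libraries that share tissue, genotype and depth.

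The rest of the pathway was tested with limma over all genes, with p-values adjusted by Benjamini-Hochberg. Of 48 listed genes 26 were matched and 21 passed the filter on low values in each tissue, and the unmatched genes were not analysed here. In the DG 0 of the 21 passed the test, as 0.699% of all genes did (0.337% higher and 0.363% lower in KO), and 4 had an unadjusted p under 0.05, which 26.5% of all genes had. In the SVZ 0 of the 21 passed, as 0.0066% of all genes did, and 6 had an unadjusted p under 0.05, which 12.6% of all genes had. Without SVZ KO a 2 were higher and 5 lower in KO, against 4.21% and 4.48% of all genes, and 8 had an unadjusted p under 0.05, against 27.4%. Median log2 fold changes of the 21 were 0.07 in the DG, beside 0.09 for all genes, and -0.22 in the SVZ, beside 0.03 for all genes.

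Among the oxidoreductases, Aldh1a7 had the lowest p in the DG. It is a close relative of Aldh1a1, with which it may share reads, so its values are uncertain. Aldh1a7 stood at 3.13, 1.68 and 0.893 FPKM in DG KO libraries, against 0.285, 0.181 and 0.229 FPKM in DG controls. The groups did not overlap (ratio 8.20, log2 fold change 1.16 ± 0.27 SE, limma adjusted p = 0.0708). DG controls averaged 0.232 FPKM, under the 0.5 FPKM filter on low values, so Aldh1a7 entered the DG test only through its KO libraries. Its DG ratio rests on a control level near the floor, and its DG p is no independent support. SVZ levels of Aldh1a7 stood at 0.483, 3.37 and 3.37 FPKM in KO libraries a, b and c, against 0.902, 0.562 and 0.643 FPKM in controls, the same split of SVZ KO libraries as for Rdh5. It was higher in SVZ KO without SVZ KO a (limma adjusted p = 0.00402) and did not pass with all libraries (adjusted p = 0.403). Dhrs4, a reductase of retinal and other carbonyls, stood at 3.75, 2.82 and 3.34 FPKM in SVZ KO libraries, against 5.36, 5.20 and 6.27 FPKM in SVZ controls. The groups did not overlap, and the limma adjusted p was 0.366 with all libraries (log2 fold change -0.62 ± 0.13 SE) and 0.024 without SVZ KO a. Dgat1, which can esterify retinol, came next in the DG (0.26 ± 0.08 SE on the log2 scale, limma adjusted p = 0.118), with every KO library above every control.

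The receptors and the retinaldehyde carrier gave the other calls without SVZ KO a. Rara, a retinoic acid receptor, stood at 2.39, 7.20 and 5.80 FPKM in SVZ KO libraries a, b and c, against 2.31, 3.49 and 2.60 FPKM in SVZ controls, and was higher without SVZ KO a (limma adjusted p = 0.0185). Rarb stood at 5.27, 3.32 and 3.15 FPKM in SVZ KO libraries, against 7.69, 6.98 and 7.87 FPKM in SVZ controls. All SVZ KO libraries lay below all controls of Rarb, and it was lower without SVZ KO a (limma adjusted p = 0.00566). Rarg (ratio 0.611 with all libraries, limma adjusted p = 0.0444 without SVZ KO a) and Rxrg (ratio 0.725, 0.0477) were also lower, while Rxra and Rxrb did not pass. Striatal markers, which Rarb and Rxrg followed in the DG, summed to 376, 327 and 336 FPKM in SVZ KO libraries and 407 to 548 FPKM in SVZ controls, and their part was not tested. Rlbp1, a retinaldehyde binding protein, stood at 5.40, 2.76 and 3.03 FPKM in SVZ KO libraries a, b and c, against 7.51, 6.57 and 8.62 FPKM in SVZ controls. It was lower without SVZ KO a (limma adjusted p = 0.007). Astrocyte markers summed to 465 and 500 FPKM in SVZ KO b and c, against 829 to 1094 FPKM in SVZ controls. They were also lower in all DG KO libraries, but there the Rlbp1 groups overlapped. Rlbp1 was at 4.66 to 7.05 FPKM in DG KO libraries and 5.75 to 9.88 FPKM in DG controls. The part of astrocyte RNA in the Rlbp1 values was not tested. With all SVZ libraries the adjusted p of Rara was 0.434, and that of Rarb, Rarg, Rxrg and Rlbp1 was 0.366. Over all the alternatives tried, the adjusted p in the SVZ of these genes and of Aldh1a7 and Dhrs4 reached up to 0.959.

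Tgm2, a transglutaminase induced by retinoic acid in many cells, was the pathway gene with groups that did not overlap in either tissue. It stood at 2.31, 2.96 and 3.26 FPKM in DG KO libraries, against 2.24, 1.96 and 1.67 FPKM in DG controls, a ratio of 1.45. SVZ levels of Tgm2 stood at 1.43, 1.40 and 1.47 FPKM in KO libraries, against 2.05, 1.99 and 2.61 FPKM in controls, a ratio of 0.646. KO libraries were thus high in the DG and low in the SVZ. The KO effect in the SVZ minus that in the DG was -0.77 ± 0.17 (SE, log2 scale; limma adjusted p = 0.101), and over the alternatives tried the adjusted p ran between 0.033, without DG KO a, and 0.237. Of the 21 genes 0 passed this test of the difference in limma, as 0.0335% of 14914 genes did, and 4 had an unadjusted p under 0.05, which 16% of genes had.

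**Figure D4:**
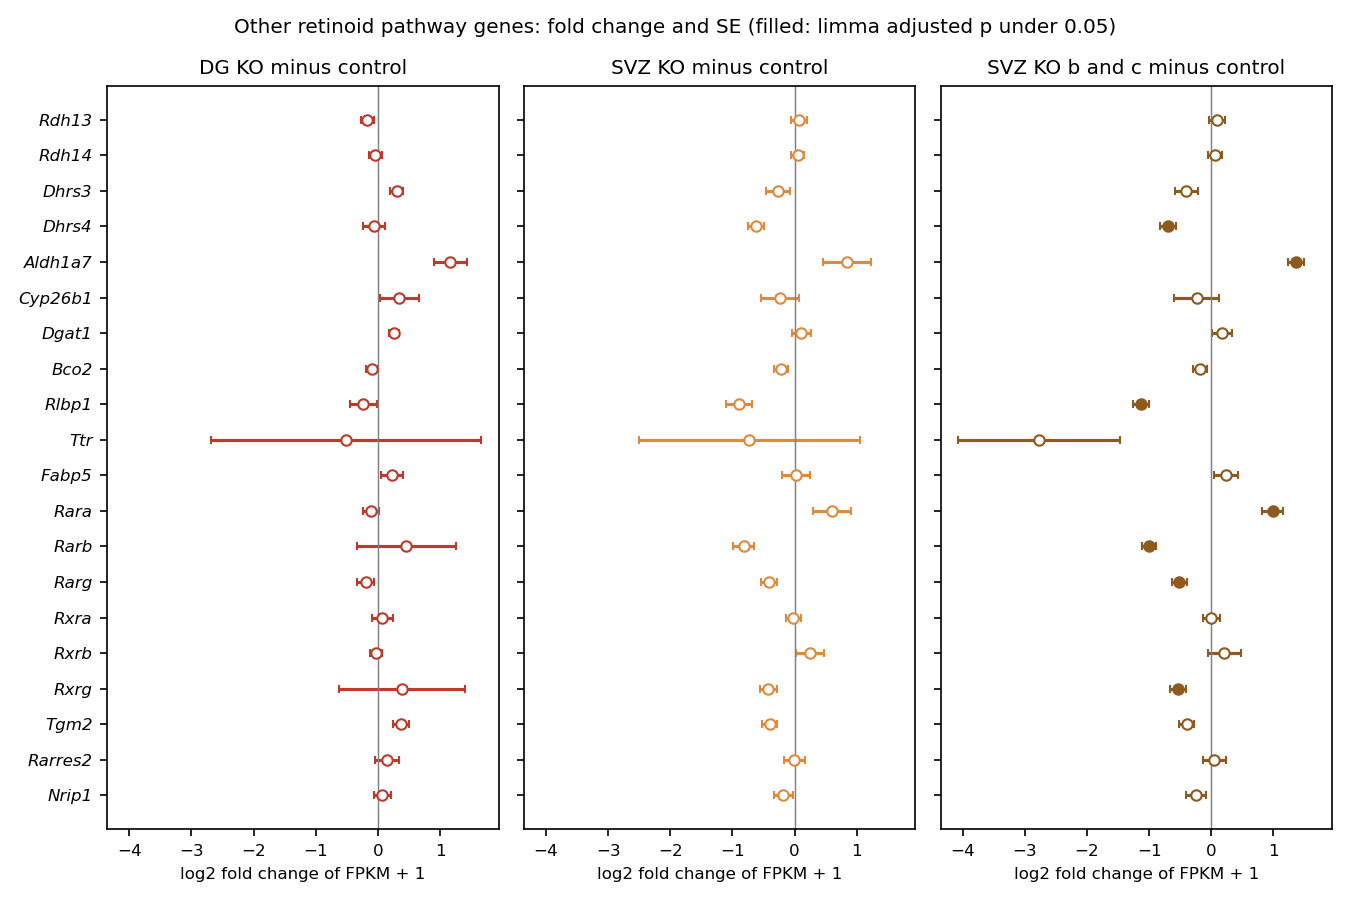
Log2 fold change of FPKM + 1, KO minus control, with its SE (horizontal) for 20 of the 21 other retinoid pathway genes in the DG, in the SVZ, and in the SVZ without KO a; filled points had a limma adjusted p under 0.05. Filled points appear in the right panel alone, 2 above 0 (Aldh1a7 and Rara) and 5 below it.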

How the data were processed

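PolyA-selected RNA was sequenced in 12 libraries. The submitters' processing notes name TopHat2 2.1.0, Partek, CASAVA 1.8.4 and the build GRCm38 (mm10), without roles, annotation or use of strand. The deposited FPKM tables hold 1 row per transcript, TMM-scaled according to their file names. The authors' deposited comparison tables gave p-values, a signed fold change (control over KO, treated as a score) and group means per transcript, and served to name transcripts. Gene name and both means matched each row to a transcript (relative tolerance 0.0001). This worked for all 40483 rows per tissue, 87 by means alone. Transcripts were then summed per gene.

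The scale log2(FPKM + 1) was used in limma 3.58.1 (R 4.3.3). Genes averaging 0.5 FPKM or more entered, KO against control in each tissue, and a model of the 4 groups gave the difference between tissues. Where a library was left out, genes were kept by their mean over all libraries, a choice made after both ways had been computed. Adjusted p under 0.05 was called. Low values lay within 0.1 of whole reads in 46.4% to 62.6% of cases, where chance gives 20%, too few to recover reads.

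The members and all lists were chosen with earlier results of these data known. Named genes of the pathway were those called with or without a left-out library, the 2 lowest p-values per tissue, and those without overlap in both tissues. For likeness, the 5 genes with the highest r to Rdh5 and the 1 highest for each other member were named. The values of 1 pathway gene are not reported here, and the counts over the lists include it.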

Additional observations from a re-analysis of the deposited data

Results flagged for a closer look

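These differences between tissues are the KO effect in the SVZ minus the KO effect in the DG on the log2(FPKM + 1) scale. Each was flagged because every KO library lay on one side of the control mean in the DG and on the other side in the SVZ. For the 2 genes chosen with these contrasts known, Rdh10 (-0.202) and Aldh1a2 (-1.34), the difference was not tested. For Aldh1a2, fibroblast markers differed the same way, at 162 to 171 FPKM summed in DG KO libraries and 62.0 to 167 FPKM in DG controls, and at 20.1 to 38.0 FPKM in SVZ KO libraries and 39.2 to 56.7 FPKM in SVZ controls; their part was not tested. For the pathway genes the limma test of the difference gave adjusted p = 0.478 for Rdh13 (0.245), 0.263 for Dhrs3 (-0.568) and 0.101 for Tgm2 (-0.775). None of these passed the threshold.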

How the results depend on the processing

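No paired analysis was possible because the columns of the tables carry no replicate number, so the planned fit with the replicate number as a block was not run. The DG log2 fold change of Rdh5, 0.81, became 0.993 with its most abundant transcript alone and 1.06 with a pseudocount of 0.1. Leaving out 1 library at a time gave 0 to 7 called pathway genes in the SVZ, 7 without SVZ KO a, and 0 to 1 whose effect differed between tissues, 1 (Tgm2) without DG KO a. The other 55 alternatives for Rdh5 and these counts kept direction and call or stayed close to the value given. Among the other 8 retinoid genes 186 alternatives moved less than the spread of libraries and 3 moved more. Rbp4 in the DG (2 of 12 alternatives), Crabp1 in the SVZ and Rdh11 in the DG, all within 1 SE of 0, changed sign in some. With a minimum mean of 2 FPKM, Aldh1a2, Crabp2 and Stra6 had no SVZ value. Quantile normalization and median centring brought the DG median over all genes from 0.09 to 0.02 and 0.01. Low values rest on few reads, most of all in DG control b.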
